A study of Mus musculus with 9 samples.

Results

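The mouse genome holds 6 conventional actin genes, and their transcripts were compared here in 3 layers of the newborn bladder. Members were chosen by gene symbol alone: every probe set of the array that the platform annotation assigns to Actg2, Acta2, Acta1, Actc1, Actb or Actg1 was taken. That gave 12 of the 45101 probe sets, of which 3 are array control probe sets for Actb and 9 are ordinary probe sets. Acta2 has 3 ordinary probe sets and Actb has 2, whereas Actg2, Acta1, Actc1 and Actg1 have 1 each. All 9 ordinary probe sets passed the filter on dim signals. The arrays came from detrusor (the smooth muscle coat), urothelium (the lining epithelium) and stroma, each cut from frozen sections by laser capture, with 3 arrays per layer. All mice were FVB/N animals carrying an SMGA/EGFP transgene, a reporter named for smooth muscle gamma actin (Actg2), and no group lacked it. Of the 9 arrays, 4 came from postnatal day 1 (detrusor 1, detrusor 2, urothelium 2 and stroma 1) and 5 from postnatal day 2 (detrusor 3, urothelium 1, urothelium 3, stroma 2 and stroma 3). Sex is given as unknown, tissue was not pooled, and which arrays share an animal is not given in the sources used here, so p-values measure the spread between these arrays, which may be technical. Whether the transgene adds sequence that the Actg2 probe set reads is likewise not given.

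Actin subunits polymerise into the filaments on which myosin pulls, and into the cortex and stress fibres of non-muscle cells. Actg2 (smooth muscle gamma actin) and Acta2 (smooth muscle alpha actin) build the thin filaments of visceral and vascular smooth muscle. Acta1 and Actc1 encode the alpha actins of skeletal and cardiac sarcomeres, and Actb and Actg1 encode the cytoplasmic actins of nearly every cell. The proteins are close to one another in sequence, and muscle actin genes are textbook targets of serum response factor (SRF), which binds a DNA element called the CArG box and works with the cofactor myocardin in smooth muscle.

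RefSeq promoter sequence (GRCm38.p6, 250 bases before to 50 after the start site) was at hand for 4 of the genes, Acta2, Acta1, Actc1 and Actg1. They are shown because 3 of them are muscle actins and the fourth is a cytoplasmic actin with nearly level signals. Each window below is written 5′ to 3′ on the coding strand, which is the minus strand for all 4 genes, with the CArG box match in capitals and 10 flanking bases on each side.
Acta2, chr19:34255438-34255467: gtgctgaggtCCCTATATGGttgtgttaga
Acta2, chr19:34255388-34255417: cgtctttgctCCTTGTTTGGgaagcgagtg
Acta1, chr8:123894829-123894858: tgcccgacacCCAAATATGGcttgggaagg
Actc1, chr2:114052903-114052932: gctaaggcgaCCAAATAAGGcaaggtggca
Actg1, chr11:120348566-120348595: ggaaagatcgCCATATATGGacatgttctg
The motif searched was CC, then 6 bases that are each A or T, then GG. An exact CArG box began 73 bases before the start site in Acta1, 47 before it in Actc1 and 90 before it in Actg1. The box reads the same on both strands, and 1.63% of all 32851 promoter windows of this length hold an exact match. Acta2 held 0 exact matches and 2 with 1 central base other than A or T, at 84 and 34 bases before the start. Counted with that allowance, Acta1 held 3 and Actc1 held 4 matches, Actg1 held 1, and 9.98% of all windows hold at least 1. The start site used for Acta2 lies inside the annotated gene, whose 5′ end is at chr19:34255585. The Acta2 matches and distances hold for that start site only. The MCAT element (CATTCC on either strand), bound by TEAD factors, matched once in Acta2 and once in Acta1, against 14.7% of all windows, and had no match in Actc1 or Actg1. A match only describes these letters, and the cytoplasmic gene Actg1 carried the exact box as well.

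Values are the authors' linear probe set intensities, scaled by them to 1 level per array. Tests were run on log2(intensity + 39.31), 39.31 being the intensity below which 20% of all values lay. On this scale the lowest possible level is 5.30. The layers' markers largely followed the labels, with 3 exceptions that bear on the actins. In urothelium 3, all 6 smooth muscle markers (Myh11, Cnn1, Des, Smtn, Mylk and Tagln) were above both other urothelium arrays. Of these 6, 5 were higher by over 2 log2 units. All 8 fibroblast markers were also above both other urothelium arrays, 0 of them by over 2 log2 units. The summed intensity of the smooth muscle markers there was 221248, against 19908 and 31523 in the other urothelium arrays, with 238170 to 344397 in detrusor and 46294 to 86157 in stroma. In stroma 3, all 10 urothelial markers were above both other stroma arrays, 3 of them by over 2 log2 units. Their sum reached 164501 against 15085 and 37242 in the other stroma arrays and 2354.5 to 3986 in detrusor. The median intensity over all probe sets was also highest in stroma 3, at 388.5 against 253.0 and 232.9 in stroma 1 and 2. In detrusor 1, 9 of 10 skeletal muscle markers were above both other detrusor arrays, 5 of them by over 2 log2 units. Detrusor 1 was also the highest detrusor array for 6 of 6 endothelial, 5 of 6 pericyte and 5 of 6 macrophage markers, 0 of them by over 2 log2 units. The share of all genes highest within their layer in urothelium 3, stroma 3 or detrusor 1 was not counted. At its highest value, each actin gene read between 47.3% (Actb) and 83.8% (Acta2) of the brightest probe set on that array. The table carries neither detection calls nor saturation flags.

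Actg2, whose reporter the mice carried, was high in every detrusor array and uneven elsewhere. Its intensity was 72260, 109196 and 78729 in detrusor 1 to 3, against 1920, 757 and 82286 in urothelium 1 to 3 and 40808, 4214 and 35233 in stroma 1 to 3. Every detrusor array lay above every stroma array, whereas urothelium 3 lay inside the detrusor range, 108.7-fold above urothelium 2. The mean log2 level was 16.38 ± 0.31 in detrusor, 12.30 ± 3.55 in urothelium and 14.16 ± 1.83 in stroma (SD, n = 3 each). By limma, detrusor minus stroma was 2.22 ± 1.42 (SE, adjusted p = 0.381) and detrusor minus urothelium was 4.08 ± 1.42 (adjusted p = 0.0762), so neither passed. Without urothelium 3, the array with raised smooth muscle markers, the difference from urothelium was 6.09 ± 0.83 (adjusted p = 0.0013), and without urothelium 2 it was 2.75 (adjusted p = 0.251). Without stroma 2 the difference from stroma was 1.17 (adjusted p = 0.673). In tissue captured in bulk, fewer cells of a type and less RNA per cell cannot be told apart. The part that neighbouring tissue in a captured sample played in these values was not tested.

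Acta2 separated detrusor from the other layers on 2 of its 3 probe sets and not on the brightest. The brightest, 1416454_s_at (the suffix marks probes that can match transcripts of more than 1 gene), read 67648, 124007 and 74445 in detrusor, 24150, 17968 and 107689 in urothelium, and 108443, 40938 and 81860 in stroma. Detrusor and stroma overlapped there, with a difference of 0.26 ± 0.59 log2 units (SE, adjusted p = 0.826). It was 0.67 with quantile normalization and 0.67 with median centring, where the median of all genes was 0.25 in place of -0.16, and -0.14 without stroma 2, and did not pass in any of these. The difference from urothelium was 1.25 ± 0.59 (adjusted p = 0.191), with 2.03 without urothelium 3 (adjusted p = 0.00857) and 0.74 without urothelium 2 (adjusted p = 0.503). Probe set 1444105_at read 18034, 20303 and 26456 in detrusor, against 180, 116 and 9589 in urothelium and 667, 93 and 1443 in stroma. All detrusor arrays stood above all others on that probe set. Probe set 1456658_at showed the same separation, at 1616, 1665 and 2542 in detrusor, 57.4, 45.1 and 1118 in urothelium, and 239, 127 and 146 in stroma. By gene, 11.8% of all tested had every detrusor array above every stroma array, and 20% above every urothelium array. The share of all probe sets above both layers was not counted.

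Over the 9 ordinary actin probe sets, limma called 3 in detrusor against urothelium (11% of all 25693 probe sets tested were). It called 0 in detrusor against stroma (3.56%), with 4 of the 9 at an unadjusted p under 0.05. In urothelium against stroma it called 0 (0.0934%), with 1 of the 9 at that unadjusted level. The share of all probe sets at an unadjusted p under 0.05 was not counted. Of Acta2, 1444105_at and 1456658_at were higher in detrusor than in urothelium, by 4.95 ± 1.34 and 3.20 ± 0.85 log2 units (SE, limma, adjusted p = 0.0367 and 0.0346). Against stroma they were higher by 5.37 ± 1.34 and 3.24 ± 0.85 and did not pass (adjusted p = 0.0533 and 0.0639). Both passed against stroma with quantile normalization (adjusted p = 0.045 and 0.0429), median centring (0.0214 and 0.0262), the pseudocount at the median (0.0292 and 0.0307) and without urothelium 3 (0.00468 and 0.00602). Both lost the call against urothelium when any 1 of the 3 detrusor arrays, urothelium 1 or urothelium 2 was left out (adjusted p from 0.0848 to 0.141). Over the 9 arrays, 1444105_at and 1456658_at tracked each other (Pearson's r = 0.96), and each tracked 1416454_s_at less closely (0.72 and 0.71), as a description of arrays that share layers. With a gene's probe sets averaged, Acta2 passed against urothelium, at 3.13 log2 units (adjusted p = 0.0354), and not against stroma, at 2.96 (adjusted p = 0.0802).

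**Figure D1:**
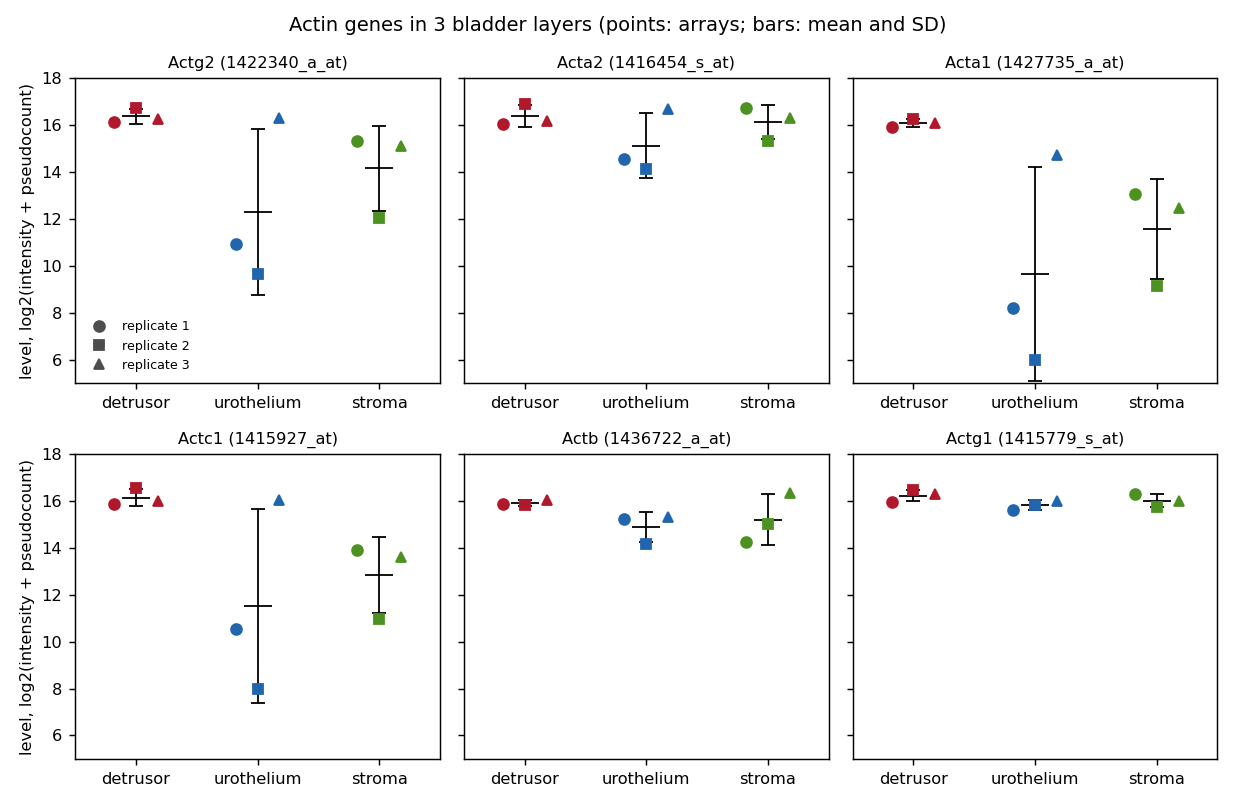
Level of each actin gene, log2(intensity + pseudocount), in detrusor, urothelium and stroma, from the probe set with the highest mean; points are arrays, with the marker shape giving the replicate, and bars are the mean and SD. The 3 detrusor arrays lie close together for all 6 genes, and urothelium 3 lies far above urothelium 1 and 2 for Actg2, Acta1 and Actc1.

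Acta1, the actin of skeletal muscle, read high in all detrusor arrays on its 1 probe set. Its intensity was 61510, 78798 and 70168 in detrusor, against 256, 23.7 and 27519 in urothelium and 8673, 526 and 5718 in stroma. All detrusor arrays exceeded all others, and in urothelium 2 the value was below the pseudocount. Actin sequences are close to one another, and whether this probe set also read other actin transcripts was not tested. With the brightest probe set standing for each gene, Acta1 alone of the 6 passed: it was higher in detrusor than in urothelium by 6.45 ± 1.78 log2 units (87.3-fold on the scale used, SE, limma adjusted p = 0.031). The call was lost without any 1 of the 3 detrusor arrays, urothelium 1 or urothelium 2 (4.61 to 6.54 log2 units, adjusted p from 0.0761 to 0.108), and the difference was 9.0 ± 1.02 without urothelium 3 (adjusted p = 0.000506). With the pseudocount at its 5th percentile or median setting the difference was 6.83 or 5.53. Detrusor minus stroma was 4.52 ± 1.78 and did not pass (adjusted p = 0.163), and it passed without urothelium 3 (SE 0.91, adjusted p = 0.0208). That array enters this contrast only through the shared spread.

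Actc1, the cardiac actin gene, followed the same order. Its intensity was 60300, 96378 and 65815 in detrusor, 1456, 211 and 68083 in urothelium, and 15567, 1959 and 12568 in stroma. Every detrusor array lay above every stroma array, and urothelium 3 again fell inside the detrusor range. Actc1 also had 1 probe set, and whether it read other actin transcripts was not tested. The difference was 3.31 ± 1.57 log2 units from stroma (SE, limma adjusted p = 0.24) and 4.62 ± 1.57 from urothelium (adjusted p = 0.0715). Without urothelium 3 both passed, at 3.31 ± 0.80 (adjusted p = 0.0408) and 6.89 ± 0.90 (adjusted p = 0.00107), whereas without urothelium 2 the difference from urothelium was 2.85 (adjusted p = 0.227). Within detrusor the spread was small for both sarcomeric actins, with an SD of 0.18 log2 units for Acta1 and 0.36 for Actc1.

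Several markers of skeletal muscle cells did not move with Acta1 and Actc1 across the detrusor arrays. Myog, the myogenin of differentiating myoblasts, had a log2 level of 11.49 in detrusor 1 but 5.56 and 6.45 in detrusor 2 and 3, both close to the bottom of the scale. Mylpf (fast myosin light chain) stood at 11.85, 7.44 and 7.08, Myh3 (embryonic myosin heavy chain) at 13.34, 8.19 and 7.74, and Chrna1 (muscle acetylcholine receptor) at 9.71, 6.40 and 6.0. Myog, Mylpf and Chrna1 did not pass the filter on dim signals, whereas Myh3 did. Acta1 in the same arrays was at 15.91, 16.27 and 16.10, so it was no higher in detrusor 1. The summed intensity of the 10 skeletal muscle markers ran from 23499 to 63979 in detrusor, from 1227 to 5118 in urothelium and from 1824 to 3260 in stroma, with the detrusor sum carried in part by Ckm, Tnnt3 and Myh8, which were high in all detrusor arrays. The 6 cardiac markers summed to between 2124 and 4148 in detrusor, between 468 and 1193 in urothelium and between 681 and 1994 in stroma. Myl7 (atrial myosin light chain), Nppa (atrial natriuretic peptide) and Myh6 (alpha cardiac myosin) were above every other array in all detrusor arrays. Myh6 did not pass the filter. Over all genes tested, every detrusor array lay above every stroma array for 11.8% and above every urothelium array for 20%. The share above both layers at once was not counted. Myl7 stood at 11.13, 9.07 and 10.01 in detrusor and at most at 8.02 elsewhere, and Nppa at 8.87, 8.70 and 8.89 with at most 8.14 elsewhere. Myh6 stood at 9.93, 9.73 and 7.85 in detrusor and at most at 7.70 elsewhere. The other 3 overlapped between layers, among them Nkx2-5, the cardiac homeobox gene, at 7.84, 8.38 and 8.02 in detrusor and within 7.64 to 8.30 elsewhere.

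Several sarcomere partners of these actins were as steady across detrusor as the actins themselves. Tnnt2, the cardiac form of troponin T, stood at 15.99, 16.39 and 16.10 in detrusor, at 8.70, 7.17 and 14.28 in urothelium and at 12.41, 9.34 and 11.35 in stroma. Tnnc2, the fast skeletal troponin C, stood at 14.42, 14.28 and 14.56 in detrusor, against 5.78, 5.64 and 10.15 in urothelium and 8.83, 9.17 and 9.16 in stroma. Tnnt1, slow troponin T, was between 13.58 and 13.74 in detrusor, and Myl4, the atrial and embryonic myosin light chain, between 15.08 and 15.49. Neb and Actn2, which encode the sarcomere proteins nebulin and alpha-actinin 2, behaved otherwise: Neb was at 9.05 in detrusor 1 and at 5.65 and 5.37 in the others, and Actn2 at 10.66 against 7.33 and 7.34. Myh7 and Tnnc1, which were called higher in detrusor than in urothelium, were less steady. Myh7 stood at 13.04, 10.88 and 9.86 in detrusor 1 to 3, and Tnnc1 at 11.93, 9.24 and 11.21. How many members of the striated muscle list were steady was not counted. Myl4, Neb, Actn2, Myh7 and Tnnc1 were picked after their values were seen.

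**Figure D2:**
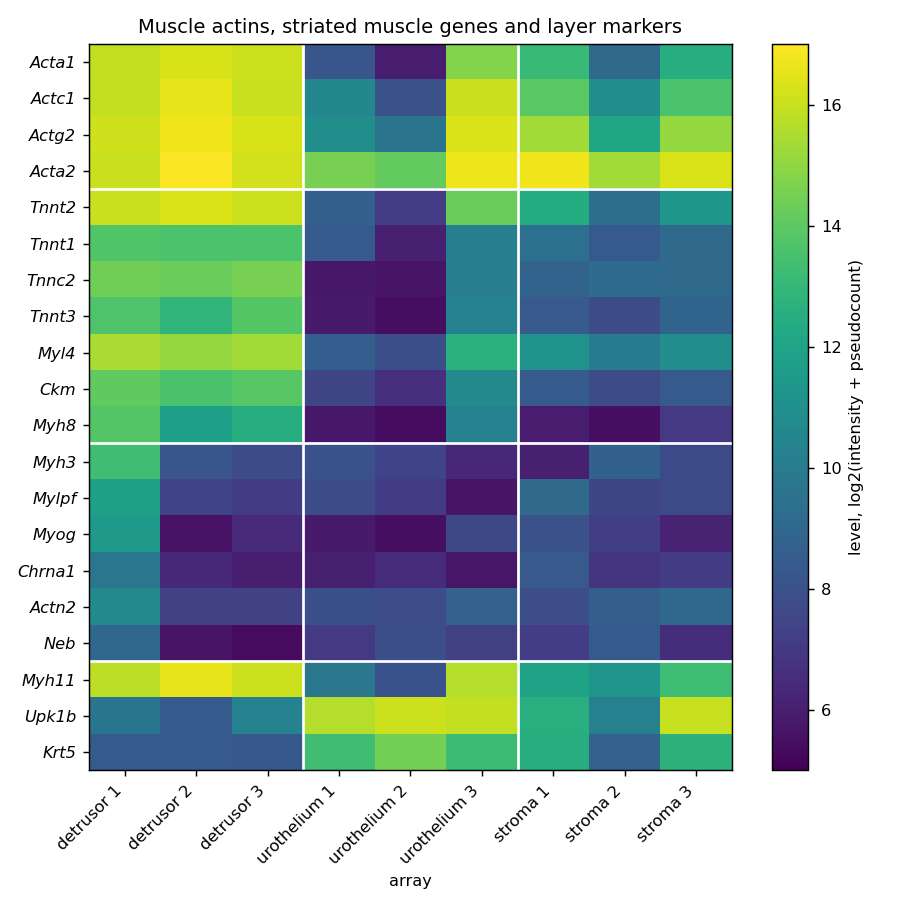
Heat map of log2 levels by array (columns, grouped by layer). Rows are 4 muscle actins, 7 striated muscle genes high in all detrusor arrays, 6 other striated muscle genes and 3 layer markers. Among detrusor arrays the 6 are highest in detrusor 1, as are Tnnt1, Myl4, Ckm and Myh8 of the 7. Colour runs from 5 to 17 log2 units. Acta1 and Actc1 are bright in all 3 detrusor arrays, while Myog is brighter in detrusor 1 and near the bottom of the scale in detrusor 2 and 3. Myog, Mylpf and Chrna1 did not pass the filter.

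The smooth muscle actins did not keep 1 ratio across layers. The log2 intensity of Actg2 minus that of Acta2 on the same array was 0.10, -0.18 and 0.08 in detrusor, -3.63, -4.50 and -0.39 in urothelium, and -1.41, -3.27 and -1.22 in stroma. The detrusor values exceeded all others, and stroma 2, urothelium 1 and urothelium 2 had the lowest. The mean differed by 1.96 between detrusor and stroma and by 2.83 between detrusor and urothelium, each with p = 0.1 in a two-sided exact permutation test, the smallest that 3 arrays against 3 allow. This holds for the brightest Acta2 probe set: with Acta2 taken as the mean of its probe sets, detrusor minus stroma was -0.73 and detrusor minus urothelium was 0.95 (exact permutation p = 0.4 for each). The ratio shows unequal change on these probe sets and does not say which transcript was more abundant.

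Actb, often used as a reference gene, ordered the layers differently on its 2 ordinary probe sets. On 1436722_a_at it read 59474, 58450 and 67644 in detrusor, 38451, 18297 and 40960 in urothelium, and 19212, 32934 and 84187 in stroma. On 1419734_at it read 9028, 35757 and 13642 in detrusor, 20390, 20124 and 34965 in urothelium, and 61997, 34362 and 54821 in stroma. Detrusor was thus above urothelium in every array on the first probe set, and mostly below stroma on the second, where only detrusor 2 reached into the stroma range.

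The ratio of the first probe set to the second ran from 1.63 to 6.59 in detrusor, from 0.909 to 1.89 in urothelium and from 0.31 to 1.54 in stroma. Over the 9 arrays they correlated at r = -0.21, whereas 1436722_a_at and the 3′ control probe set of Actb correlated at 0.93. Detrusor minus stroma was 0.71 ± 0.47 log2 units on the first (SE, limma adjusted p = 0.401) and -1.57 ± 0.46 on the second (adjusted p = 0.09), so the sign depended on the probe set and neither passed. The first was 1.13 with median centring (adjusted p = 0.11) and 0.23 without stroma 1 (adjusted p = 0.785). The second passed with array weights (-1.93, adjusted p = 0.0412) and without detrusor 2 (-2.13, adjusted p = 0.0421). Detrusor minus urothelium was 1.01 ± 0.47 on the first (adjusted p = 0.185), and it passed with postnatal day in the model (1.32 ± 0.38, adjusted p = 0.0401). It was -0.57 ± 0.46 on the second (adjusted p = 0.515).

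The control probe sets of Actb read its 3′ end, middle and 5′ end. The 3′ signal was 61628, 79504 and 71984 in detrusor, 31664, 17127 and 48683 in urothelium, and 27504, 26259 and 75038 in stroma. The 5′ signal was 24583, 10613 and 31685 in detrusor, 5948, 2018 and 6264 in urothelium, and 1115, 3300 and 15007 in stroma. Signal was lower toward the 5′ end on every array. The 3′ to middle ratio ran from 1.23 to 1.79 in detrusor, from 2.13 to 3.14 in urothelium and from 1.75 to 3.47 in stroma. The steepest 3′ to 5′ ratio, 24.7 in stroma 1, belonged to the array with the lowest ratio of 1436722_a_at to 1419734_at, and the flattest, 2.51 and 2.27 in detrusor 1 and 3, to the arrays with the highest. The part of this slope in the Actb differences was not tested.

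**Figure D3:**
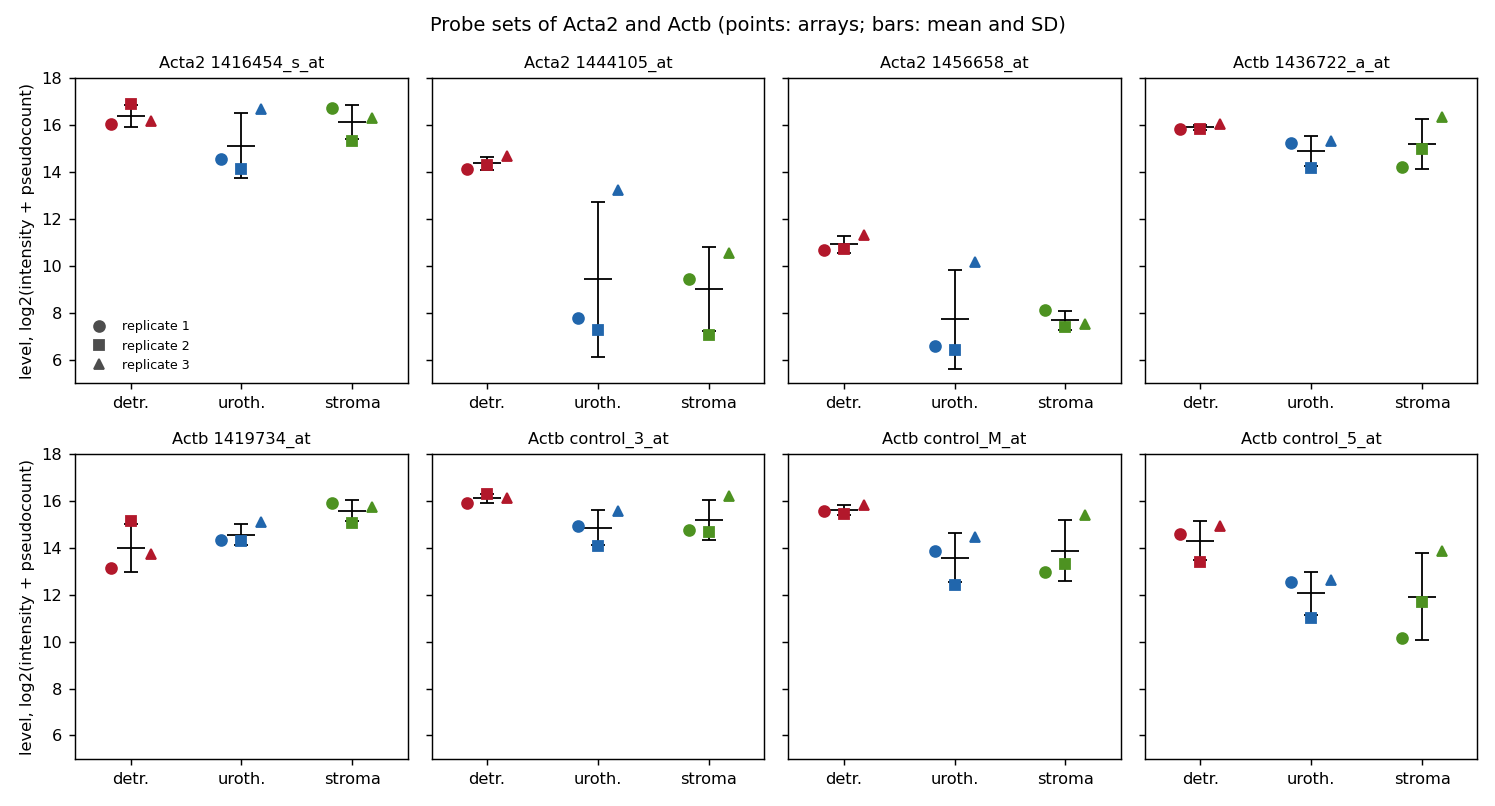
Levels of the 3 Acta2 and 5 Actb probe sets, log2(intensity + pseudocount), in detrusor (detr.), urothelium (uroth.) and stroma; points are arrays and bars are the mean and SD. Acta2 separates detrusor from the other layers on 1444105_at and 1456658_at but not on 1416454_s_at, and Actb 1419734_at is highest in stroma while the control probe sets are highest in detrusor on average.

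Actg1 varied least, as read by its 1 probe set. That probe set has the same suffix, _s_at, as the brightest Acta2 probe set, so its probes can match transcripts of more than 1 gene. Whether it read other actin transcripts was not tested. The intensity of Actg1 was 64032, 89701 and 79672 in detrusor, 50717, 58867 and 66420 in urothelium, and 81619, 55671 and 64720 in stroma. On every array that was between 36.4% and 80.1% of the brightest probe set, and no saturation flags were at hand. The layers overlapped, and the SD within a layer was 0.25, 0.19 and 0.28 log2 units in detrusor, urothelium and stroma. Detrusor minus stroma was 0.21 ± 0.22 (SE, limma adjusted p = 0.594), detrusor minus urothelium was 0.40 ± 0.22 (adjusted p = 0.249) and urothelium minus stroma was -0.19 ± 0.22 (adjusted p = 0.685). Detrusor minus stroma was 0.54 ± 0.14 with quantile normalization (adjusted p = 0.0506) and 0.63 ± 0.33 with median centring (adjusted p = 0.317). Urothelium minus stroma turned positive with quantile normalization (0.12) and with median centring (0.23). The balance of Actg1 and Actb overlapped between layers, with exact permutation p from 0.2 to 1.

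Across the 6 genes, limma called 0 in detrusor against stroma, against 5.84% of all 13064 genes. Acta1 was the 1 of the 6 with an unadjusted p under 0.05, against 22.9% of all genes. All 6 differences were above 0 with the brightest probe sets, with a median of 1.47 against -0.16 over all genes, although Actb turned negative, at -0.43, when its probe sets were averaged. Arrays did not overlap for 3 of the 6, Actg2, Acta1 and Actc1, all higher in detrusor, a pattern that 11.8% of all genes showed, with 27.1% not overlapping in either direction and 15.3% lower. In detrusor against urothelium 1 of 6 was called, against 16.4% of all genes, and 3 had an unadjusted p under 0.05, against 29.5% of all genes. The median difference was 2.66 against 0.01 over all genes, and arrays did not overlap for Acta1 and Actb, whereas 39.3% of all genes did not overlap and 20% did not in that direction. Without urothelium 3, 4 of the 6 were called against urothelium and 2 against stroma, where 14.2% and 5.77% of all genes were called. In urothelium against stroma limma called 0 of 6, against 0.23% of all genes, with 0 at an unadjusted p under 0.05 (19% of all genes) and a median of -1.15 against -0.12. Arrays overlapped there for all 6, whereas 23.1% of all genes did not overlap (9.77% higher and 13.3% lower in urothelium). The largest of these differences was -1.93 ± 1.78 for Acta1 (adjusted p = 0.602), and without urothelium 3 it was -4.48 and still did not pass.

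**Figure D4:**
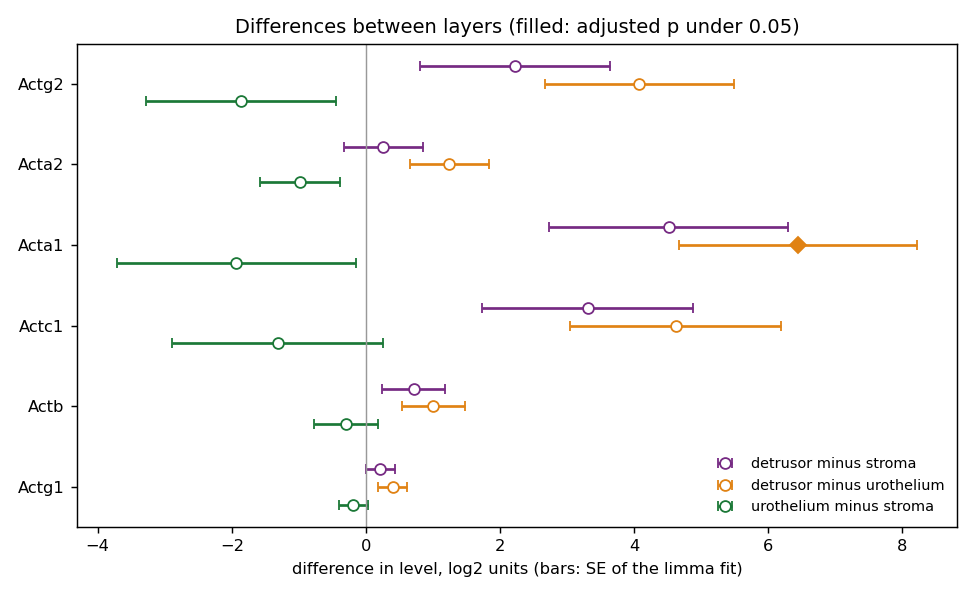
Difference in level between layers for each actin gene, in log2 units, with the SE of the limma fit as bars; filled symbols mark an adjusted p under 0.05. The filled point is Acta1 in detrusor minus urothelium, at 6.45, and intervals are widest for Acta1, Actc1 and Actg2.

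No actin gene passed for postnatal day, in a design that called 2 of 13064 genes. With layer in the model, limma called 0 of 6 for day 2 against day 1 (adjusted p from 0.873 to 0.989), against 0.0153% of all genes. Actb, at 0.92 ± 0.31 log2 units (SE), was the 1 of the 6 with an unadjusted p under 0.05, against 727 of all 13064 genes. With its probe sets averaged, Actb was at 0.38 (limma adjusted p = 0.831). Within day 1, detrusor minus stroma was 1.12 for Actg2, 3.0 for Acta1 and 2.29 for Actc1 (2 arrays against 1), and within day 2 it was 2.69, 5.28 and 3.71 (1 against 2). Detrusor minus urothelium within day 1 was 6.80, 10.1 and 8.25 for those genes, and within day 2, which includes urothelium 3, it was 2.63, 4.62 and 2.71. The brightest Acta2 probe set gave -0.24 within day 1 and 0.36 within day 2 for detrusor minus stroma, and Actb gave 1.62 and 0.36. A test of layer by day gave adjusted p from 0.831 to 0.917 for the 6 genes and called 0 of 13064 genes, with 812 at an unadjusted p under 0.05.

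Across the 9 arrays, Actg2 correlated with Actc1 at r = 0.98, with Acta1 at 0.98 and with Acta2 at 0.95, against 0.76 with Actg1 and 0.59 with Actb. Actb and Actg1 correlated at 0.20. These values describe arrays that share layers. Outside the family, the genes most like Actg2 were Cald1 (caldesmon, 0.98), Tagln (transgelin, 0.98) and Tpm2 (beta tropomyosin, 0.98), and 58 genes exceeded 0.9. Those most like Acta1 were Tagln (0.99), Cnn1 (calponin, 0.99) and Tnnt2 (0.99), and those most like Actc1 were Cald1 (0.99), Tagln (0.98) and Ptchd1 (0.98). For Acta2 they were Tpm2 (0.97), Fhl1 (0.96) and Ifi202b (0.95). Actb was closest to Raly, Sdhd and Top2b (0.97 each), and Actg1 to Cep120 (0.97), Cox6a1 (0.95) and Ecpas (0.95).

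In lists of genes that work with the muscle actins, every call in the detrusor comparisons was higher in detrusor. Over all genes tested, 3.12% rose and 2.72% fell in detrusor against stroma, 8.05% rose and 8.37% fell against urothelium, and 0.0612% rose and 0.168% fell in urothelium against stroma, where 0 members of any list below were called. Of 19 smooth muscle contractile partners, 8 rose against stroma and 15 against urothelium, and 0 fell, with median differences of 3.37 and 3.98. Hspb6 (a small heat shock protein, 4.48 ± 0.51, SE), Ppp1r12b (a myosin phosphatase subunit, 3.54 ± 0.54) and Smtn (smoothelin, 4.22 ± 0.67) had the smallest adjusted p against stroma (0.00198, 0.00797 and 0.00833). Against urothelium those were the leading genes too, at 4.35, 3.17 and 4.19. Of 26 striated muscle genes, 18 were bright enough to test: 8 rose against stroma and 10 against urothelium, and 0 fell. Ckm (muscle creatine kinase, 5.62 ± 0.82), Cap2 (a cyclase-associated actin regulator, 3.47 ± 0.58) and Myh8 (perinatal myosin heavy chain, 6.56 ± 1.12) led against stroma, and Tnnc2 (7.22 ± 0.95), Ckm (5.59 ± 0.82) and Tnnt1 (5.43 ± 0.81) against urothelium. Without detrusor 1, the array with raised skeletal muscle markers, 5 striated genes of 16 tested rose against stroma and 8 against urothelium, and 4 and 11 contractile partners did. Over all genes 1.28% and 4.64% rose in that fit, so calls were fewer over all genes as well. Without stroma 3 and urothelium 3, contractile partners that rose numbered 15 against stroma and 19 against urothelium, against 2.57% and 7.97% of all genes. These settings were chosen for the lists after seeing the data. The 6 smooth muscle markers by which urothelium 3 stood out are all among the contractile partners. Leaving that array out therefore favours their calls against urothelium by construction.

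Of 17 regulators around SRF that were tested, 3 rose against stroma and 8 against urothelium, and 0 fell. Srf itself was higher by 1.79 ± 0.40 against stroma (SE, limma adjusted p = 0.028) and by 1.89 ± 0.40 against urothelium (adjusted p = 0.00872). Csrp1 (a LIM protein of smooth muscle, 4.15 ± 0.78) and Fhl2 (a LIM cofactor, 1.51 ± 0.37) rose against stroma, and Fhl2 (2.48 ± 0.37), Csrp2 (2.41 ± 0.42) and Gata6 (1.97 ± 0.37) led against urothelium. Myocd, which encodes myocardin and was picked after its values were seen, stood at 13.95, 12.44 and 13.19 in detrusor, 7.86, 7.05 and 11.32 in urothelium and 10.44, 8.96 and 10.80 in stroma. It rose against urothelium, by 4.45 ± 0.95 (adjusted p = 0.00956). Without detrusor 1, 1 of the 17 rose against stroma, in the fit where 1.28% of all genes rose.

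Genes of actin turnover moved in both directions. Of 27 tested, 1 rose and 2 fell in detrusor against stroma, and 1 rose and 4 fell against urothelium. Fhod3, a formin of muscle, rose in both (4.71 ± 1.06 and 4.46 ± 1.06), and Scin, the severing protein scinderin, fell in both (-3.38 ± 0.68 and -3.40 ± 0.68). Gsn, gelsolin, fell against stroma (-0.99 ± 0.24), and Pfn2, profilin 2 (-1.49 ± 0.26), and Tmod3, a pointed-end capping tropomodulin (-2.36 ± 0.45), fell against urothelium. Median differences of -0.16 and 0.04 were close to those of all genes, -0.16 and 0.01, and centring arrays on their medians moved the first to 0.26.

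Of 9 actin-related proteins and Arp2/3 subunits, limma called 0 against stroma, with the smallest adjusted p, 0.0743, for Arpc1a. That subunit of the branching complex was the 1 called against urothelium, where it fell by 2.45 ± 0.30 (SE, adjusted p = 0.000844). Actl6a and Actr8 stood at -0.83 ± 0.29 and 0.49 ± 0.32 against stroma, and Actl6a and Arpc5 at -0.73 ± 0.29 and -0.54 ± 0.38 against urothelium, none of which passed.

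Of 20 cross-linkers and membrane links, 2 rose and 2 fell against stroma, and 4 rose and 6 fell against urothelium. Vasp (1.67 ± 0.32) and Vcl (vinculin, 1.81 ± 0.37) rose and Lasp1 (-1.24 ± 0.25) fell against stroma. Against urothelium the epithelial bundling gene Pls1 (-4.75 ± 0.71), the microvillar linker gene Ezr (-3.61 ± 0.61) and Lasp1 (-1.16 ± 0.25) fell, while Vcl (1.53 ± 0.37), Tln1 (talin 1, 1.53 ± 0.42), Vasp (1.18 ± 0.32) and Zyx (zyxin, 1.31 ± 0.39) rose. With arrays centred on their medians, 4 rose and 0 fell against stroma. Of 20 folding and modifying genes, 1 rose against stroma and 2 against urothelium. Msrb1, a reductase that reverses methionine oxidation of actin, rose in both (2.86 ± 0.48 and 3.14 ± 0.48), and Mical1, an actin oxidase, rose against urothelium (3.48 ± 0.54). Mical3 and Vbp1, a prefoldin subunit, stood at 1.14 ± 0.41 and 0.89 ± 0.34 against stroma and did not pass.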

How the data were processed

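Intensities of 45101 probe sets on 9 Affymetrix arrays (1 per captured sample, RNA amplified in 2 rounds, per the labels) were used as deposited by the authors, who made them with GCOS, per the submitters' processing notes; the sources used here give neither its version nor its settings. The mean without the lowest and highest 2% was 1499 to 1500 on every array, so the deposited scaling was kept, and array medians ran from 133.3 to 388.5. The number of arrays, not a depth, limits precision: the median SE of a difference was 0.45 log2 units. Symbols came from the platform annotation, with 34754 probe sets matched by gene identifier to a GRCm38.p6 table and 0 symbols changed.

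The log2(intensity + 39.31) scale was computed here. A probe set was kept if 3 or more of the 9 arrays had it at no less than their median, and 64 controls were left out. Each gene was represented by its brightest probe set (13064 genes), and a further fit kept all 25693 probe sets, named or not. The comparisons between layers used limma 3.58.1 under R 4.3.3 (lmFit, then eBayes with a trend; layer was the only term over all 9 arrays), with Benjamini-Hochberg adjustment over all features and a threshold of 0.05. Balances of isoforms were compared by exact permutation. Members, lists, tests and alternatives were chosen with earlier results of these data known. Named genes were the actins, the cell type markers, the 3 genes most correlated with each, and per list the 3 smallest adjusted p in each detrusor comparison and members called against the list's direction; others are said to be so. Replicates were numbered in the order of the records. Alternatives were other normalizations, pseudocounts, filters and probe set rules, array weights, day as a term and leaving out arrays.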

Additional observations from a re-analysis of the deposited data

How the results depend on the processing

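Alternatives were set against the values given above. Counts of the 6 actin genes called in detrusor against urothelium were 2 with median centring, 2 with averaged probe sets, 3 with array weights, 2 with day as a term and 4 without both stroma 3 and urothelium 3, and leaving out single arrays gave 0 to 4. All genes called there were 13.3%, 16%, 29%, 15.7% and 14.6% in those fits, against 16.4% here. For detrusor against stroma the count was 1 without both arrays (3.65% of all genes) and 0 to 2 with single arrays left out, and for urothelium against stroma and for day it was 0 in all alternatives run. Over the probe sets and comparisons together, calls numbered 3, with 5 under quantile normalization, median centring and the median pseudocount, 6 with array weights, 9 without both arrays and 0 to 9 with single arrays left out. The share of all probe sets called was not counted in those alternatives. These counts therefore do not show whether actin probe sets moved more than others. Counts of all genes called in urothelium against stroma, 30 here, ran from 0 to 541. Averaging probe sets turned Actb in detrusor against stroma to -0.43, the balance of Actg2 and Acta2 there to -0.73, and that of Actg1 and Actb to 0.64 against stroma and 0.18 against urothelium. In urothelium against stroma, Actg1 turned to 0.12 (quantile) and 0.23 (median centring), Actb to 0.13 (median centring) and 0.077 (without both arrays), and 1456658_at to -0.13 (5th percentile pseudocount), -0.076 (array weights) and -1.25 (without both arrays), where 1444105_at was -0.73 and the balance of Actg1 and Actb -0.38. For day, Acta2 turned to -0.18 with median centring, and without both arrays Actg2, Acta2, Acta1 and Actc1 were -0.66, -0.41, -0.51 and -0.20. None of these reversed values passed.

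Leaving out single arrays gave, for detrusor against stroma, -0.14 to 0.56 for Acta2, 1.31 to 2.34 for the balance of Actg2 and Acta2 and -1.10 to 0.13 for that of Actg1 and Actb. For detrusor against urothelium the balances ran from 2.00 to 4.06 and from -0.87 to -0.23. For urothelium against stroma they ran from -2.10 to -0.04 and from -0.49 to 0.74, with Actc1 from -3.58 to 0.46, Actb from -0.78 to 0.29, 1444105_at from -1.49 to 1.49 and 1456658_at from -1.18 to 0.71. For day, Actg2 ran from -0.96 to 1.91, Acta2 from -0.60 to 0.60, Acta1 from -1.13 to 2.76, Actc1 from -0.92 to 2.56 and Actg1 from -0.23 to 0.026. Of 426 gene values under alternatives, 384 kept direction and call, 14 gained a call, 5 lost it and 23 changed sign. Where the cause of a change is not the alternative's own construction, it was not tested. No paired analysis was possible because the labels give the layers no shared replicate numbers. With 3 arrays per layer and no detection calls, low values such as Acta1 in urothelium 2 cannot be called absent.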
